A study of Mus musculus with 614 samples.

Results

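Meis1, Hlf, Hoxa7, Hoxa9, Hoxa10, Gata2, Mecom, Lmo2, Mycn and Angpt1, 10 genes tied to the multipotent state of blood progenitors, were read in single mouse bone marrow progenitors and dendritic cell precursors. The 10 genes were taken by symbol, each with 1 row, among 43280 symbols. The table held cells sorted through 12 gates, 598 cells from bone marrow and 16 from blood, with values in TPM, a scale of transcript abundance per length that sums to the same total in each cell. The study asked from which progenitors plasmacytoid dendritic cells (pDC), the interferon-producing dendritic cells, arise.

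All cells came untreated from C57BL/6J mice of 7 to 10 weeks, and every gate was lineage negative (Lin-), so no genotype or agent separated the gates. Lymphoid-primed multipotent progenitors (LMPP, 65 cells) were c-Kit+ Sca-1+ CD34+ CD127- with intermediate CD16/32. Common lymphoid progenitors (CLP, 48 cells) were CD127+ Flt3+ CD34+ Thy-1- with low c-Kit and Sca-1. Pre-pro-B cells (30 cells) were B220+ CD43+ CD93+ CXCR4+ IL7R+ Flt3+ with low CD24 and CD117. Granulocyte-monocyte progenitors (GMP, 51 cells) were c-Kit+ Sca-1- CD34+ with high CD16/32, and common monocyte progenitors (cMoP, 66 cells) were c-Kit+ CD115+ Flt3- CD11b- with high Ly6C. Common dendritic cell progenitors (CDP, 58 cells) were Flt3+ CD115- IL7R- CD11c- MHCII- with intermediate c-Kit. Pre-dendritic cells (pre-DC) were CD11c+ Flt3+ and lacked MHCII, CD172α and B220. In marrow they were split by SiglecH and Ly6C into SiglecH+Ly6C+ (45 cells), SiglecH+Ly6C- (70 cells), SiglecH-Ly6C+ (68 cells) and SiglecH-Ly6C- (70 cells), and a blood gate held 16 cells. pDC (27 cells) were B220+ SiglecH+. None of the 10 genes encodes a surface marker of these sorts.

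The homeodomain proteins of the HoxA cluster bind DNA together with partners of the TALE class, of which Meis1 is one, and this pairing helps to keep haematopoietic stem cells self-renewing and is turned on in many acute leukaemias. Hlf, Mecom and Gata2 are transcription factors known to hold stem cells in a multipotent state. Lmo2 is the bridging protein of the complex that joins the SCL and GATA factors on DNA. Mycn shares the work of Myc in stem cells, and Angpt1 is a secreted ligand of the receptor Tie2.

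The labels name no animal, pool or culture, so each gate counts as 1 sample, and no test between gates was made. Every SD is over cells and every interval is an exact 95% binomial one that covers counting error only. A TPM value keeps no depth, so the genes per cell (those at 1 TPM or above) stand beside the results. Their median was 3292 in LMPP, 3280 in CLP, 3315.5 in pre-pro-B cells, 5792 in GMP, 6671 in cMoP, 5208 in CDP, 4177 to 4982.5 in the marrow pre-DC gates, 3648.5 in blood pre-DC and 4398 in pDC. Gapdh, a gene that every cell uses, was listed at 0 in 9 cells, so a 0 for a gene is reported only as listed at 0. At 1 TPM or more in 20% of cells or more, LMPP held 7 of 9 stem and multipotent surface genes and none of 9 dendritic cell markers. By the same measure GMP held 7 of 7 granulocyte-monocyte progenitor markers, cMoP 7 of 7 monocyte markers, the pre-DC gates 7 to 9 of 9 dendritic cell markers, and pDC 8 of 8 pDC markers. Other lists passed too, among them 6 of 7 monocyte markers in GMP and in blood pre-DC. So did 7 of 9 dendritic cell markers in pDC and 7 of 8 pDC markers in each SiglecH+ pre-DC gate. Of the stem and multipotent surface genes, 6 of 9 passed in cMoP and in CDP. Their median summed level was 1214 TPM in LMPP but 1860 TPM in SiglecH-Ly6C+ pre-DC, so this list does not set LMPP apart. In cMoP 7 of 7 granulocyte-monocyte progenitor markers passed. CDP held 4 of 9 dendritic cell markers, 5 of 6 lymphoid progenitor markers and 7 of 8 pDC markers. Il7r RNA was found in 56.9% of CDP, a gate sorted as IL7R-. CLP held 5 of 6 lymphoid progenitor markers, but also 5 of 8 pDC markers and 6 of 7 granulocyte-monocyte progenitor markers, the last with a median summed level of 64.7 TPM, against 33296 TPM in GMP. The pre-pro-B gate went against its label in part. There 8 of 8 pDC markers passed 20% of cells and had a median summed level of 9054 TPM. Pax5, Igll1 and Vpreb1, which mark B lineage cells, were at 0 in all 30 cells. Pax5, however, reached 1 TPM in no cell of any gate. As in CLP, 6 of 7 granulocyte-monocyte progenitor markers passed, with a median summed level of 38.75 TPM. Of 8 B lineage markers 2 passed, Cd79a in 20% and Cd79b in 40% of the cells, and 4 of 6 lymphoid progenitor markers passed, among them Dntt (96.7%) and Il7r (83.3%). The name pre-pro-B is therefore only that of the sort below.

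On GRCm38 (GENCODE M21) Meis1 lies at chr11:18879817-19018985, Hlf at chr11:90336536-90390895, Mecom at chr3:29951296-30548008, Lmo2 at chr2:103957986-103981878, Mycn at chr12:12936093-12941914 and Angpt1 at chr15:42424723-42676977. Gata2 lies at chr6:88193891-88207032, and Hoxa7 (chr6:52214491-52221854), Hoxa9 (chr6:52223100-52231089) and Hoxa10 (chr6:52231197-52240854) are neighbours in the HoxA cluster. Each gene is protein-coding. Exons of Meis1, Hoxa7, Mecom and Angpt1 overlap antisense transcripts named Gm16140, Hoxaas3, Mecomos and Gm17473. The shared stretch is 586 bases long for Hoxa7, 81 for Mecom and 737 for Angpt1. The library kit does not mark strand, so reads from the shared stretches cannot be told apart.

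The RefSeq promoter table used here (GRCm38.p6) was matched to 8 of the 10 genes. The 250 bases before the RefSeq starts of Meis1 and Hlf, whose shares were highest in LMPP, and of Hoxa7, which was found across the progenitor gates, are shown with each CG pair in capitals. The bases after the start were found in a GENCODE transcript for Meis1, and no exact match was found for Hlf and Hoxa7. The Hoxa7 stretch lies within the gene span given above, away from its 5′ end.
Meis1 (chr11:19018970-19019219, minus strand): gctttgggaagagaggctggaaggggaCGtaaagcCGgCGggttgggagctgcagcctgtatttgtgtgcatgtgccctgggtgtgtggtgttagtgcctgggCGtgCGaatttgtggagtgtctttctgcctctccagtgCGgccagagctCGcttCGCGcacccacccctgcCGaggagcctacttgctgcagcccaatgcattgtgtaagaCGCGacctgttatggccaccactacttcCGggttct
Hlf (chr11:90390918-90391167, minus strand): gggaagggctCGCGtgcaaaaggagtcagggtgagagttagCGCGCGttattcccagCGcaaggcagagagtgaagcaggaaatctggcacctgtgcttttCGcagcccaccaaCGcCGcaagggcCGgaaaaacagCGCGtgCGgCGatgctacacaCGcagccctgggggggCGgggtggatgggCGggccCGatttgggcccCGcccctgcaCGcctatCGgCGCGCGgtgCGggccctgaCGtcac
Hoxa7 (chr6:52218574-52218823, minus strand): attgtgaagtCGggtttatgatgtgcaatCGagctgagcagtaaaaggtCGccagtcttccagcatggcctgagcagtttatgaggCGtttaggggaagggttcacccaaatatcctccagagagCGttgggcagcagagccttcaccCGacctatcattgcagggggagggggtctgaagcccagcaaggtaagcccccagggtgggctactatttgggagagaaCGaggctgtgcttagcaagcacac
The Hlf stretch holds 26 CG pairs, the Meis1 stretch 13 and the Hoxa7 stretch 7, against a median of 6 over 32851 promoter windows of the same length. The Meis motif TGACAG, searched on both strands, was in none of these 3 windows and is held by 15.9% of all windows. Of the 11 windows of the 8 genes, the second one of Mecom holds 1 copy, and the Gata motif AGATAA, held by 9.99% of all windows, was in none.

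Most of the 10 genes were found in a larger share of LMPP than of any other gate. Meis1, Hlf and Angpt1 were each found in over 70% of LMPP, and Lmo2 was found in nearly all. Hoxa7, Hoxa9 and Lmo2 were also common in lymphoid, myeloid and dendritic progenitors, while Hlf, Gata2, Mecom, Hoxa10 and Mycn were found in few cells outside LMPP, apart from Gata2 in GMP. On the mean of log2(TPM + 1), 7 of the 10 genes were highest in LMPP. With the gates of each gene put in order, the gap between neighbours exceeded 1 SD over cells in 1 of 110 steps. It was that of Hlf in LMPP over CDP (3.57, with an SD of 2.70). The 110 include steps between neighbours both at 0 in every cell, such as those of Gata2 among the pre-DC gates. Such steps could not exceed the SD. In the other steps neighbours did not differ beyond their spread over cells.

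**Figure D1:**
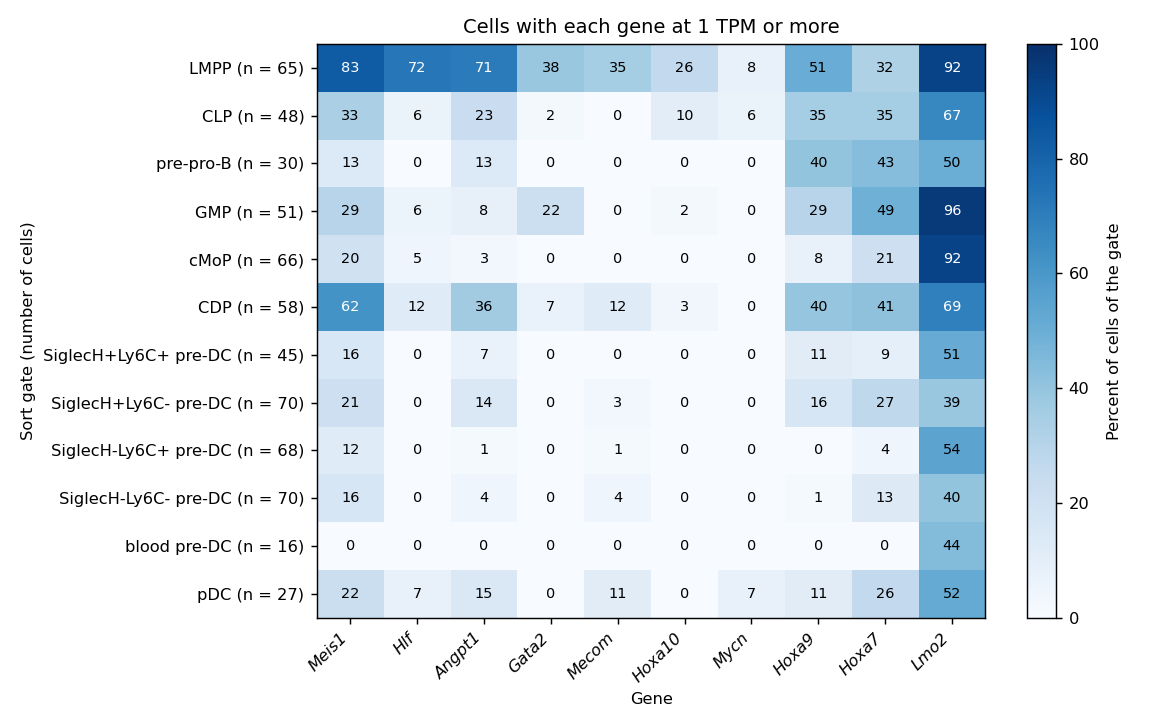
Percent of cells of each gate (rows, with the number of cells) in which each gene (columns) was at 1 TPM or more. LMPP hold Meis1 in 83.1% and Hlf in 72.3% of cells, and blood pre-DC hold Lmo2 alone.

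Meis1, the Hox partner of the TALE class, was found at 1 TPM or more in 54 of 65 LMPP, or 83.1% (71.7 to 91.2%). The share was 33.3% (20.4 to 48.4%) in CLP, 13.3% in pre-pro-B cells, 29.4% in GMP, 19.7% in cMoP and 62.1% (48.4 to 74.5%) in CDP. It lay between 11.8 and 21.4% in the marrow pre-DC gates, at 22.2% in pDC, and at 0 of 16 blood pre-DC. CDP were thus the gate nearest to LMPP. LMPP ran up to 1779.69 TPM with a median of 298.37 TPM, CDP up to 781.23 TPM with a median of 10.27 TPM, and CLP up to 358.39 TPM with a median of 0. At least 100 TPM of Meis1 was found in 63.1% of LMPP, 14.6% of CLP, 1.96% of GMP and 32.8% of CDP. The gene was rare in SiglecH+Ly6C- and SiglecH-Ly6C- cells, yet single cells of the SiglecH+Ly6C- gate reached 532.2 TPM and of the SiglecH-Ly6C- gate 1092.17 TPM. Those cells reached the range of LMPP while most cells of their gates were at 0.

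Meis3 and Pknox1, also of the TALE class, had a higher share in CDP than in LMPP, the reverse of the order for Meis1. Of the 11 genes of the class, Meis2 was found in at most 6.25% of the cells of a gate and Pknox2 in none. Meis3 was found in 1.54% of LMPP, 27.6% of CDP and 29.6% of pDC. Pknox1 was found in 15.4% of LMPP, 56.9% of CDP and 69.7% of cMoP. Cells of the cMoP and CDP gates held more genes in all than LMPP.

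Of 39 Hox genes in the table, Hoxa7 and Hoxa9 were found in the most cells, 156 and 125. Hoxa10 was found in 25 cells, fewer than Hoxc9 (49), Hoxb4 (29) and Hoxa5 (27), but its share of LMPP, 26.2%, was above that of Hoxa5 (9.23%) and Hoxb4 (4.62%), and Hoxc9 reached 1 TPM in no LMPP. In CDP the order differed, with Hoxa5 in 12.1%, Hoxc9 in 13.8% and Hoxa10 in 3.45% of cells. In the same cluster, Hoxa2, Hoxa11 and Hoxa13 were at 0 in every cell of the 12 gates. From another cluster, Hoxc9 was found in 25% of blood pre-DC, in a gate of 16 cells. Hoxa9, the Hox gene most tied to self-renewal and myeloid leukaemia, was found in 50.8% of LMPP (38.1 to 63.4%), 35.4% of CLP, 40% of pre-pro-B cells, 29.4% of GMP, 7.58% of cMoP and 39.7% of CDP. Its share was 11.1% in SiglecH+Ly6C+, 15.7% in SiglecH+Ly6C-, 0% in SiglecH-Ly6C+, 1.43% in SiglecH-Ly6C- and 11.1% in pDC. The SiglecH- gates thus held 1 cell with Hoxa9 between them, at a lower median of genes per cell than the SiglecH+ gates. The highest value in a cell was 1014.13 TPM in LMPP, 510.57 TPM in pre-pro-B cells and 67.8 TPM in GMP. At 100 TPM or more the order changed, with 16.9% of LMPP, 26.7% of pre-pro-B cells and none of 51 GMP. Mean Hoxa9 was 2.72 in pre-pro-B cells and 2.69 in LMPP on the log2(TPM + 1) scale, but 73.0 and 82.0 TPM on the linear scale, so the first place of pre-pro-B cells depends on the scale.

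Hoxa7 was more evenly spread. It was found in 32.3% of LMPP, 35.4% of CLP, 43.3% of pre-pro-B cells, 49.02% of GMP, 21.2% of cMoP and 41.4% of CDP, shares whose intervals overlap for each pair other than GMP and cMoP. In GMP the cells with Hoxa7 were many and low, with a highest value of 106.02 TPM and 1 cell at 100 TPM or more. LMPP held fewer and higher ones, with a highest value of 540.28 TPM and 10 cells at 100 TPM or more. Among pre-DC the share was 8.89% in SiglecH+Ly6C+, 27.1% (17.2 to 39.1%) in SiglecH+Ly6C-, 4.41% in SiglecH-Ly6C+ and 12.9% in SiglecH-Ly6C-, and pDC held it in 25.9% of cells.

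Hoxa10, at the far side of Hoxa9 in the cluster, was the rarest and the most limited of the 3. It was found in 17 of 65 LMPP (26.2%), 5 of 48 CLP (10.4%), 1 of 51 GMP and 2 of 58 CDP, and was at 0 in each cell of the other 8 gates. Its highest value was 68.16 TPM in CLP and 94.36 TPM in LMPP. In CLP the 5 cells with Hoxa10 were all among the 17 cells with Hoxa9. In LMPP 12 of 17 were.

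**Figure D2:**
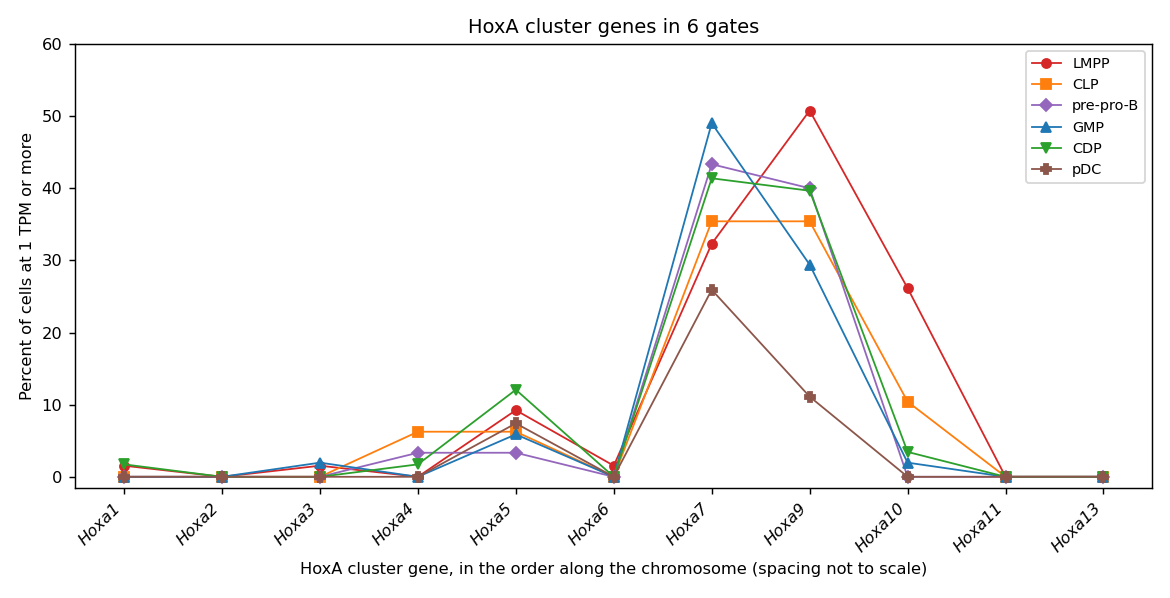
Percent of cells with each HoxA cluster gene at 1 TPM or more, in cluster order, for 6 gates (coloured symbols, joined by lines as a guide). The shares peak at Hoxa7 and Hoxa9 in each of these gates, and Hoxa10 stands at 10.4% in CLP and 26.2% in LMPP.

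Hlf, a PAR bZIP factor whose expression marks stem and multipotent cells in mice, was found in 47 of 65 LMPP (72.3%, interval 59.8 to 82.7%) with a median of 24.82 TPM and a highest value of 745.64 TPM. It was found in 3 of 48 CLP, 3 of 51 GMP, 3 of 66 cMoP, 7 of 58 CDP (12.1%, interval 4.99 to 23.3%) and 2 of 27 pDC. It was at 0 in each cell of the 5 pre-DC gates, and no pre-pro-B cell reached 1 TPM. The highest Hlf value of the whole table, 890.83 TPM, was in a CDP. That gate overlapped LMPP in 3 cells at 100 TPM or more, while no CLP, GMP, cMoP or pDC reached 100 TPM. Its relatives Tef and Dbp were found in at most 13.7 and 18.97% of the cells of these progenitor gates, and Nfil3, a repressor that binds the same sites, had the reverse order, at 3.08% of LMPP, 16.7% of CLP and 56.9% of GMP.

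Mecom, the zinc finger factor of the Evi1 locus required by long-lived stem cells, was found in 23 of 65 LMPP (35.4%, interval 23.9 to 48.2%), in no CLP and no GMP, and in 7 of 58 CDP (12.1%). The intervals of those counts of 0 reach 7.40% of CLP and 6.98% of GMP, as shares of cells listed at 1 TPM or more and not of cells that express the gene. In LMPP the values ran to 302.2 TPM and 4 cells were at 100 TPM or more. In CDP the highest was 6.57 TPM, and in pDC, where 3 of 27 cells held it, 3.95 TPM. Prdm16, its close relative, was found in 10.6% of cMoP and 4.62% of LMPP. The Mecom partners Ctbp1 and Ctbp2, general corepressors, were found in 90.2 and 50.98% of GMP, which held more genes per cell, and in 32.3 and 18.5% of LMPP.

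**Figure D3:**
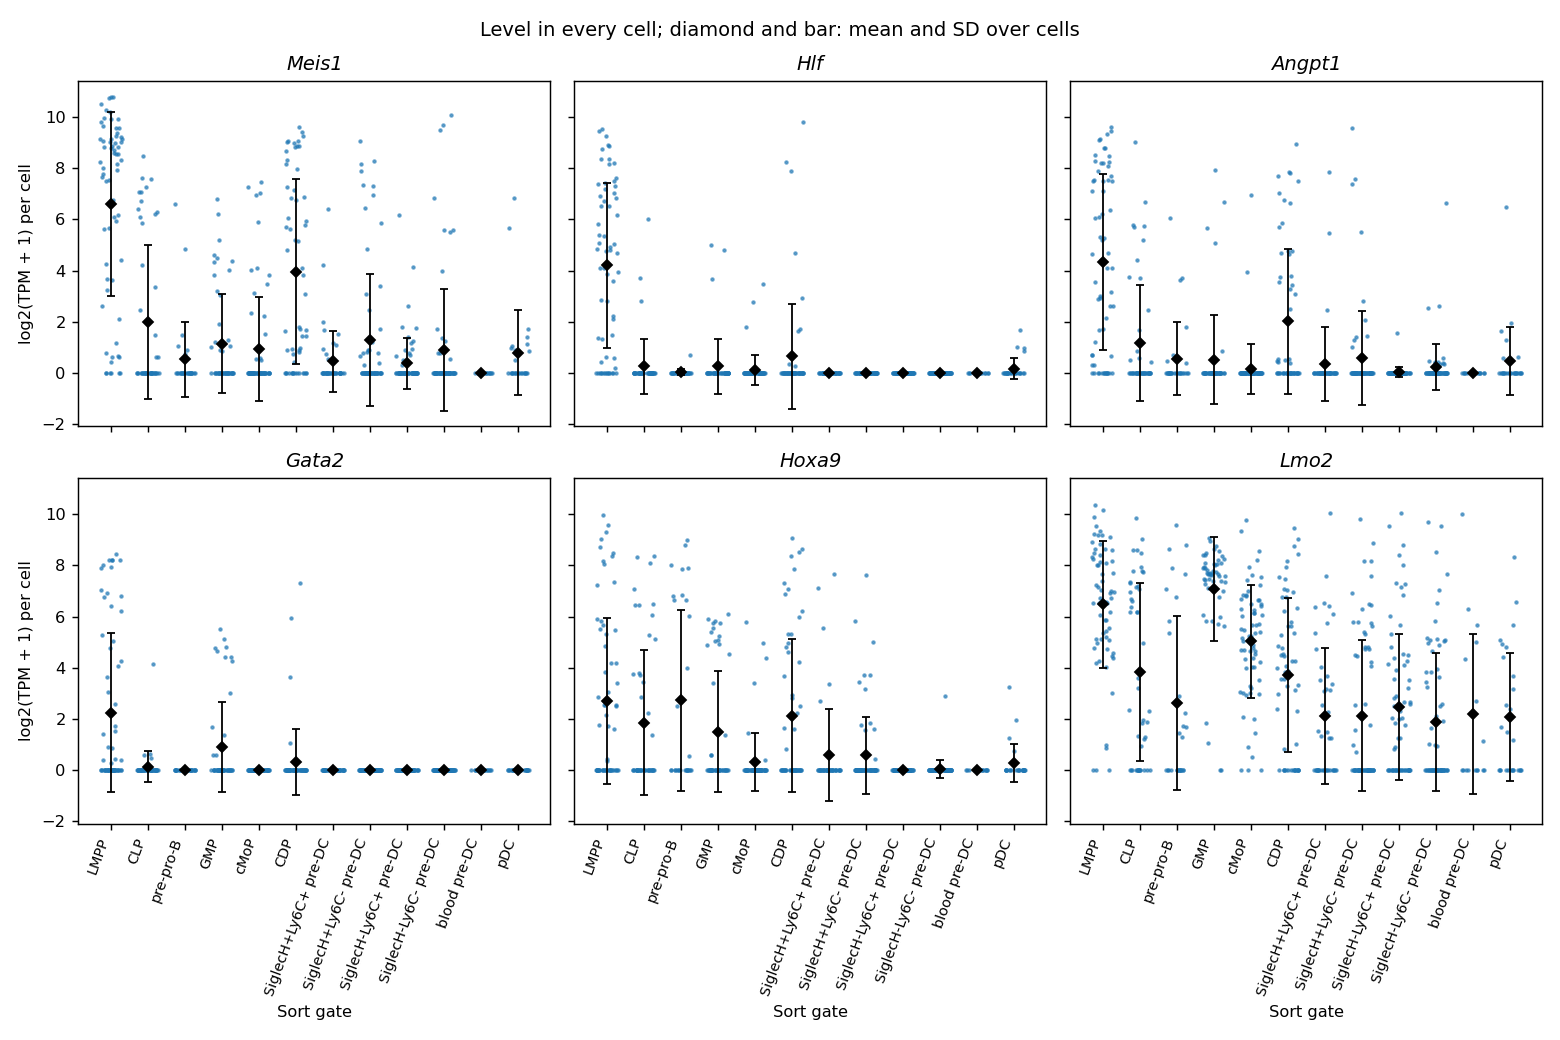
Level of 6 genes in every cell on the log2(TPM + 1) scale, by gate. Points are cells, and diamonds with bars give the mean and SD over cells. Meis1, Hlf and Angpt1 have most of their cells well above 0 in LMPP, and Lmo2 does so in LMPP, GMP and cMoP.

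Gata2, a zinc finger factor of stem cells, mast cells and early erythroid cells, was found in 25 of 65 LMPP (38.5%, interval 26.7 to 51.4%) and in 11 of 51 GMP (21.6%, interval 11.3 to 35.3%). It was found in 1 of 48 CLP and 4 of 58 CDP, and was at 0 in each cell of the other 8 gates. GMP values ran up to 44.34 TPM, with no cell at 100 TPM or more, and LMPP values up to 349.59 TPM, with 12 such cells. Markers of other Gata2-expressing lineages were found in GMP too. Of 51 GMP, 15 held 2 or more of 9 mast cell and basophil markers, 4 of them with Gata2, and 15 held 2 or more of 10 erythroid markers, 5 of them with Gata2, where the product of the shares gives 3.24 cells for each. In cMoP 10 and 22 cells held 2 or more markers of these lists, none of them with Gata2. Of the mast cell and basophil list, Hdc and Mcpt8 alone passed 20% of GMP, and Hdc alone passed 20% of cMoP. Fcer1a, Cma1 and Tpsb2 were at 0 in both gates. Of the erythroid list, Car1 and Hba-a2 alone passed 20% of GMP. In cMoP only the globin genes Hba-a2, Hbb-bs and Hbb-bt did, and Klf1, Gata1, Epor and Car1 were at 0. The summed mast cell and basophil level ran from 0 to 3553 TPM in GMP, and the erythroid one from 0 to 20294 TPM. Their part in the Gata2 share of GMP was not tested. In LMPP no cell held 2 or more markers of either list. Ms4a2, Fcer1a, Cma1, Klf1, Gata1 and Epor were at 0 in all LMPP, and the summed levels ran from 0 to 704.77 TPM and from 0 to 2982 TPM. Of 8 megakaryocyte markers, 2 or more were found in 7 LMPP, of which 5 held Gata2 (product 2.69) and 4 held Mecom (product 2.48), while Ppbp, Gp1ba, Gp1bb and Treml1 were at 0.

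Lmo2 was the most widespread of the 10 genes. It was found in 92.3% of LMPP, 66.7% of CLP, 50% of pre-pro-B cells, 96.1% of GMP, 92.4% of cMoP, 68.97% of CDP, 38.6 to 54.4% of the marrow pre-DC gates, 43.8% of blood pre-DC and 51.9% of pDC. Its median was 105.75 TPM in LMPP, 6.205 TPM in CLP, 203.04 TPM in GMP, 36.75 TPM in cMoP and 14.31 TPM in CDP. GMP were the most even, with 80.4% of cells at 100 TPM or more and a highest value of 529.96 TPM, and LMPP were wider, with 52.3% of cells there and a highest value of 1324 TPM. By mean log2(TPM + 1) GMP stood at 7.08 and LMPP at 6.47, and by mean TPM GMP stood at 207.5 and LMPP at 226.0, so the order of these gates depends on the scale.

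The other proteins of the SCL complex were spread in several ways. Tal1 (SCL), the basic helix-loop-helix partner of Lmo2, was found in 24.6% of LMPP, no CLP, 11.8% of GMP and 12.1% of CDP. Lyl1, its close relative, was found in 47.7% of LMPP, 41.7% of CLP, 76.5% of GMP and 58.6% of CDP, and Ldb1, which joins the complexes, in 33.8, 58.3, 86.3 and 37.9% of the same gates. Erg, an Ets factor of stem cells, was found in 46.2% of LMPP, 12.5% of CLP, 9.80% of GMP and 34.5% of CDP. Erg and Tal1 thus were most frequent in LMPP, as Hlf and Mecom were. Gata1, the erythroid Gata factor, reached 1 TPM in GMP alone, at 11.8% of cells.

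Mycn was found in 5 of 65 LMPP (7.69%), 3 of 48 CLP (6.25%) and 2 of 27 pDC, and in no other gate at 1 TPM. Of those 10 cells, 3 were at 100 TPM or more, and the highest value was 838.92 TPM in an LMPP. Myc itself was found in 60% of LMPP, 75.0% of CLP, 96.1% of GMP, 80.3% of cMoP, 60.3% of CDP and 22.2% of pDC, and Mycl, another of the family, in 1.54% of LMPP, 24.1% of CDP and 55.6% of pDC. Myc thus had its highest share in GMP and Mycl in pDC, while the share of Mycn was nearly the same in LMPP (7.69%) and pDC (7.41%).

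Angpt1, the 1 secreted protein of the set, was found in 46 of 65 LMPP (70.8%, interval 58.2 to 81.4%) with a median of 20.41 TPM and a highest value of 792.09 TPM. Its share was 22.9% in CLP, 13.3% in pre-pro-B cells, 7.84% in GMP, 3.03% in cMoP and 36.2% (23.99 to 49.9%) in CDP. It was 6.67% in SiglecH+Ly6C+, 14.3% in SiglecH+Ly6C-, 1.47% in SiglecH-Ly6C+, 4.29% in SiglecH-Ly6C- and 14.8% in pDC. The order of the first gates, LMPP, CDP and CLP, was that of Meis1. Tek, which encodes the receptor Tie2, was at 1 TPM or more in no cell of any gate. The related ligand Angpt2 was found in 6.15% of LMPP, 27.3% of cMoP and 18.97% of CDP.

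The genes were also found together in single cells. An LMPP held 5.09 ± 1.91 of the 10 genes (SD over 65 cells), a CLP 2.19 ± 1.42, a pre-pro-B cell 1.60 ± 1.003, a GMP 2.41 ± 1.17, a cMoP 1.48 ± 1.03 and a CDP 2.83 ± 1.72. The mean was 0.735 to 1.2 in the marrow pre-DC gates, 0.4375 in blood pre-DC and 1.52 in pDC. At least 3 of the genes were found in 58 of 65 LMPP (89.2%), 22 of 48 CLP (45.8%), 24 of 51 GMP (47.1%) and 33 of 58 CDP (56.9%). GMP, cMoP and CDP held fewer of the 10 genes than LMPP although their cells held more genes in all. Within LMPP the 33 cells with fewer genes, at a median of 3033, held 4.70 of the 10 on average, and the 32 cells with more genes, at a median of 3876.5, held 5.50. Among cells with 3000 to 6000 genes the mean was 5.20 in 51 LMPP, 2.26 in 34 CLP, 2.34 in 29 GMP and 2.85 in 53 CDP.

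**Figure D4:**
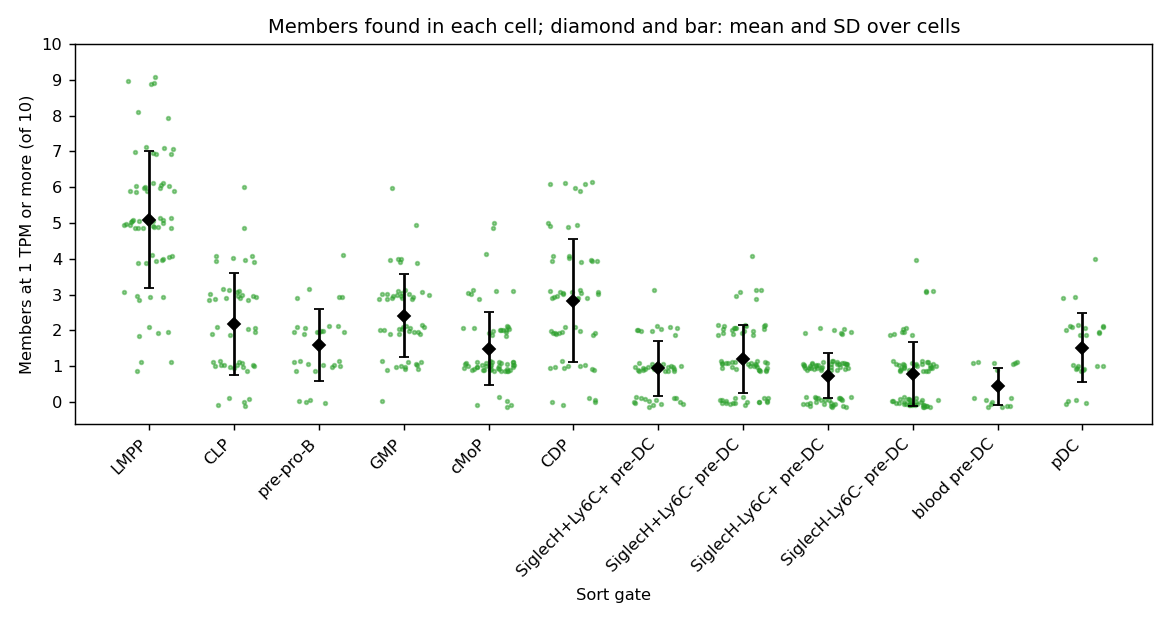
Number of the 10 genes at 1 TPM or more in each cell, by gate. Points are cells (jittered), and diamonds with bars give the mean and SD over cells. LMPP average 5.09 and reach 9, and no gate other than LMPP has a mean above 2.83.

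Meis1 and Angpt1 were both at 1 TPM or more in 42 LMPP, where the product of their shares gives 38.2 cells. Gata2 and Angpt1 were together in 23 LMPP (product 17.7), Hlf and Mecom in 19 (product 16.6) and Hlf and Gata2 in 21 (product 18.1). Hoxa7 and Hoxa9, the neighbours in the cluster, were together in 10 LMPP (product 10.7). Each of the 45 pairs shared at least 1 LMPP, and 38 of them shared more cells than the product. LMPP with more genes also held more of the 10, and the part of that in these counts was not tested. In CDP, each of the 7 cells with Hlf also held Meis1 and each also held Lmo2, and Meis1 and Hoxa9 were together in 18 cells (product 14.3). In GMP, 7 of the 11 cells with Gata2 held Meis1 (product 3.24 cells). Over all pairs found in a gate, 15 of 28 shared more cells than the product in GMP, 22 of 36 in CLP, 28 of 36 in CDP and 11 of 28 in pDC.

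Against LMPP, cells of the CLP, GMP and CDP gates were lower in most of the 10 genes. These comparisons share the LMPP cells, and LMPP libraries stand in a run of consecutive library numbers of their own in the labels (run and gate cannot be told apart there). A difference is that of the gate means of log2(TPM + 1), counted from 1 upward or from -1 downward. Background shares are over genes at 1 TPM in 20% or more of the cells of either gate, a filter that 9 of the 10 genes passed in each of the 3 comparisons, with Mycn left out. Hlf, Hoxa10 and Mecom passed through LMPP alone in all 3, Gata2 did so against CLP and CDP, and Angpt1 against GMP. A gene that passes only through the gate where it is high is largely bound to be lower in the other, so the counts describe the gates and are no support for a difference.

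CLP minus LMPP was -1 or less for 6 genes and 1 or more for none, where 15.2% of the 7087 genes passing the filter were at -1 or less and 26.7% at 1 or more. Mean Meis1 was 1.99 ± 3.004 in CLP and 6.59 ± 3.60 in LMPP, a difference of -4.61. Hlf differed by -3.95, Angpt1 by -3.17, Lmo2 by -2.64, Gata2 by -2.12 and Mecom by -1.25. Hoxa9 differed by -0.84, Hoxa10 by -0.25 and Hoxa7 by 0.37. Hoxa10 had a mean of 0.77 in LMPP, so its difference could not reach -1. The median of the 10 genes was -1.68, against 0 over all genes above 0 in any cell and 0.25 over those that passed. With a pseudocount of 10 Mecom lay within the line, at -0.46. Median genes per cell were close, at 3280 in CLP and 3292 in LMPP.

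GMP minus LMPP was likewise -1 or less for 6 genes and 1 or more for none, while 8.82% of 9315 genes were at -1 or less and 59.3% at 1 or more. Mean Meis1 was 1.14 ± 1.92 in GMP and 6.59 ± 3.60 in LMPP, a difference of -5.45. Hlf differed by -3.95, Angpt1 by -3.83, Gata2 by -1.36, Mecom by -1.25 and Hoxa9 by -1.20. Lmo2 differed by 0.60 and Hoxa7 by 0.08, and on the log2 of the mean TPM these were -0.12 and -2.02. With a pseudocount of 10 Gata2 (-0.80), Hoxa9 (-0.70) and Mecom (-0.46) lay within the line, and Gata2 did so in cells with 3000 to 6000 genes (-0.98). The median of the 10 genes was -1.23, against 0 over all genes above 0 in any cell and 1.36 over those that passed.

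CDP minus LMPP was -1 or less for 6 genes and 1 or more for none, while 3.24% of 9081 genes were at -1 or less and 28.1% at 1 or more. Mean Meis1 was 3.96 ± 3.62 in CDP and 6.59 ± 3.60 in LMPP, a difference of -2.63. Hlf differed by -3.57, Lmo2 by -2.76, Angpt1 by -2.33, Gata2 by -1.93 and Mecom by -1.02. Hoxa9 differed by -0.57 and Hoxa7 by 0.01. With a pseudocount of 10 Gata2 (-0.98) and Mecom (-0.42) lay within the line, and Mecom did so with size factors too. The median of the 10 genes was -1.48, against 0.06 over all genes above 0 in any cell and 0.59 over those that passed.

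**Figure D5:**
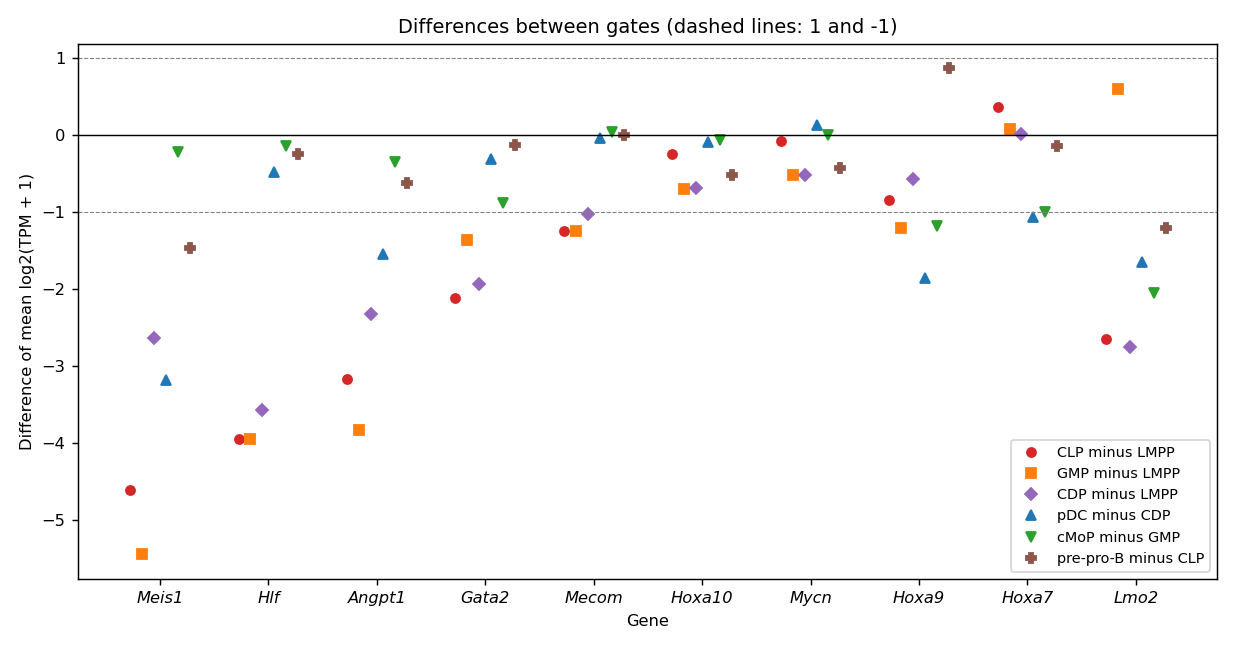
Difference of the gate means of log2(TPM + 1) for each of the 10 genes (x axis) in 6 comparisons (symbols), with dashed lines at 1 and -1. Meis1, Hlf and Angpt1 lie at -2.33 or below in the 3 comparisons with LMPP, and Hoxa7 and Hoxa9 lie nearer to 0 there.

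Meis1, Hoxa9, Lmo2, Angpt1 and Hoxa7 were lower in pDC than in CDP. pDC minus CDP was -1 or less for these 5 genes, where 27.1% of 9537 genes were at -1 or less and 4.77% at 1 or more. They were the 5 of the 10 that passed the filter, Hoxa9 and Angpt1 through CDP alone. Meis1 differed by -3.18. Hoxa9 was 0.27 ± 0.75 in pDC and 2.13 ± 3.005 in CDP, a difference of -1.86. Lmo2 differed by -1.65, Angpt1 by -1.55 and Hoxa7 by -1.06. Within the run of library numbers that held 24 pDC and all 58 CDP, the differences were -3.08 for Meis1, -1.83 for Hoxa9, -1.54 for Lmo2, -1.49 for Angpt1 and -1.34 for Hoxa7. With a pseudocount of 10 Meis1 alone stayed beyond the line. Of the genes that passed the filter, 12.1% then lay beyond it either way. The median of the 10 genes was -0.77, against -0.02 over all genes above 0 in any cell and -0.44 over those that passed.

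CLP, GMP and pre-pro-B libraries stand in 1 run of library numbers. The filter left 6 of the 10 genes for CLP minus GMP and 5 each for pre-pro-B minus CLP and cMoP minus GMP. CLP minus GMP was -1 or less for Lmo2 alone, at 3.83 ± 3.47 in CLP and 7.08 ± 2.05 in GMP, a difference of -3.25, while 58.7% of 8694 genes were at -1 or less and 2.52% at 1 or more. Meis1 differed by 0.84, Angpt1 by 0.66 and Gata2 by -0.76. On the log2 of the mean TPM 8 of the 10 genes lay beyond the line either way in this comparison, and 6 in pre-pro-B minus CLP. Pre-pro-B minus CLP was -1 or less for Meis1 (-1.47) and Lmo2 (-1.20), where 10% of 6886 genes were at -1 or less and 15.5% at 1 or more, and Hoxa9 differed by 0.87. The Meis1 and Hoxa9 values thus went opposite ways, with Hoxa9 in 40% of pre-pro-B cells and 35.4% of CLP. The cMoP libraries stand in a run of their own, so run and gate cannot be told apart there. cMoP minus GMP was -1 or less for Lmo2 (-2.05) and Hoxa9 (-1.18), where 22.8% of 11004 genes were at -1 or less and 19.7% at 1 or more. Hoxa7 lay just inside the line, at -0.995.

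Among the pre-DC gates most of the 10 genes were at 0 in most cells, and no more than 3 of the 10 passed the filter in any of these comparisons, so few could reach the line. Shares of cells still varied, with Hoxa9 in 11.1 and 15.7% of the SiglecH+ gates and 0 and 1.43% of the SiglecH- gates. The SiglecH+ gates had the higher median genes per cell. In SiglecH+Ly6C- Hoxa9 was in 2.86% of the 35 cells with fewer genes and 28.6% of the 35 with more. In SiglecH+Ly6C+ its share was higher in the cells with fewer genes. The intervals of the Ly6C+ gates overlap (3.71 to 24.1% and 0 to 5.28%), and these gates stand in separate runs. The intervals of the Ly6C- gates do not overlap. The part of depth in these shares was not tested. SiglecH+Ly6C- minus SiglecH-Ly6C- was 1 or more for Hoxa7 alone, at 1.52 ± 2.63 in SiglecH+Ly6C- and 0.51 ± 1.67 in SiglecH-Ly6C-, just past the line, where 13.7% of 9125 genes were at 1 or more and 3.88% at -1 or less. Within the run that held 19 SiglecH+Ly6C- and all 70 SiglecH-Ly6C- cells the Hoxa7 difference was 1.56. It lay within the line with size factors (0.99) and with a pseudocount of 10 (0.48). The SiglecH+Ly6C- gate itself differed between its 2 runs, with Hoxa7 in 21.6% of 51 cells and 42.1% of 19 cells. None of the 10 genes passed the line for SiglecH+Ly6C+ minus SiglecH+Ly6C-, where 3.47% of 9284 genes were at 1 or more and 9.44% at -1 or less. None did for SiglecH+Ly6C+ minus SiglecH-Ly6C+, where the shares of 8683 genes were 6.21 and 5.23%, or for blood pre-DC minus marrow pre-DC (the 4 gates averaged), where those of 10035 genes were 4.6 and 20.6%. Blood and marrow pre-DC stand in separate runs, and Meis1 (-0.75) and Hoxa7 (-0.70) had the lowest differences.

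The partners of the 10 genes lay on both sides of 0 in CLP minus LMPP, and those beyond the line were mostly higher in GMP minus LMPP and CDP minus LMPP, as were the genes that passed the filter. Of 13 genes of the SCL, LMO2 and GATA complex other than Lmo2 and Gata2, 3 were at -1 or less and 3 at 1 or more in CLP minus LMPP, 2 and 4 in GMP minus LMPP, and 0 and 2 in CDP minus LMPP. Of 11 MLL complex and Dot1l cofactor genes, which maintain HoxA transcription, the counts were 1 and 2, 0 and 6, and 0 and 3 in the same order. Of 15 Polycomb subunits, which silence Hox genes, they were 3 and 3, 1 and 6, and 0 and 4. The median difference of the MLL list was 0.10, 1.24 and 0.50 in those comparisons, and of the Polycomb list 0.04, 0.54 and 0.46. Of the 36 Hox genes other than Hoxa7, Hoxa9 and Hoxa10, none passed the filter or lay beyond the line in these comparisons.

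Genes with the most similar gate means were found for each of the 10 genes over the 12 gates, as a description, since gates share runs and depth and LMPP weigh most. Meis1 was closest to Itih5 (Pearson r = 0.987), Angpt1 (0.983) and Hmga2 (0.981), and the values without LMPP were 0.964, 0.952 and 0.957. Angpt1 was closest to Pear1 (0.988), Sema3d (0.986) and Meis1. Among the closest genes of Hlf were RP23-227A12.5, a clone-based name (0.994), and Myct1 (0.989), but without LMPP those r were 0.750 and 0.361. Mecom was closest to Hlf (0.984, and 0.595 without LMPP). Lmo2 was closest to Cd63 (0.990, and 0.990 without GMP), Tspan4 and Akr1c13. Hoxa7 was closest to Ramp1 (0.952), Cep19 and Tmem254c, and Hoxa9 to Ddah2 (0.8995), Gpr56 and Kif3a. Hoxa10 was closest to Xrcc5 (0.981), Sorbs3 and Pglyrp2, and Gata2 to Serpina3g (0.978), Ddx60 and Pdzk1ip1. Mycn, found in 10 cells, was closest to Hoxa10 (0.961).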

How the data were processed

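Single cells were captured on C1 chips, and libraries were made with the Nextera XT kit, per the labels' protocols. Going by its values, the deposited table holds 1 TPM value for each symbol in each cell. The submitters' processing notes name RSEM 1.2.19 and GRCm38, and the aligner is not given in the sources used here. Levels were computed here as log2(TPM + 1), with a pseudocount of 1, and averaged over the cells of a gate. Detection means 1 TPM or more. No cell was left out, no doublet caller was run, and no 2 cells held the same values. Summed TPM per cell lay between 997617 and 1000000. TPM hold no read counts, so no count test was run. Gates were compared by the difference of means, with no test, because each gate counts as 1 sample. Shares carry exact Clopper-Pearson 95% intervals.

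The 10 genes and all lists were chosen with earlier results of these data known. For each of the 10 genes, the 3 genes most correlated over the 12 gates were named by a rule on gate means that leaves out predicted genes named Gm, Rik, AC or AL and ribosomal, mitochondrial and pseudogene symbols, but not other clone names. Some genes of the lists and of that rule are not reported here. Levels between genes are compared on TPM, a scale per transcript length. Alternatives were other pseudocounts (0.1 and 10), the log2 of the mean TPM, other detection levels (10 and 100 TPM), size factors, leaving out shallow cells (under 2000 genes), the 5% highest cells, a window of 3000 to 6000 genes per cell and cells of 1 run. Analyses ran in Python 3.11.15 with pandas 2.3.3, numpy 2.4.6 and scipy 1.17.1, figures in matplotlib 3.10.9, and the calculations were tested on simulated data.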

Additional observations from a re-analysis of the deposited data

How the results depend on the processing

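No paired analysis was possible because gates share only cell numbers, which name cells, and no test was made. No replicate could be left out, since each gate is 1 sample. Of the recomputed medians, counts and means per cell, 202 stayed close to their value and 32 moved. Some of the 202 could not move, such as values without the filter and values of 1 run for gates that lie wholly in it. Only medians beyond 1 or -1 as reported, those of the comparisons with LMPP, could count as reversed, and none did. Of 820 recomputed differences of single genes, 51 were counted as moved by 1 SD over cells or more. Among them are genes at 0 in every cell of both gates, such as Mecom in CLP minus GMP. Their SD is 0, so a rounding error alone counts as a move. None of the differences that lay beyond 1 or -1 as reported changed sign. Shares and levels of single genes moved more often. Of 480 recomputed shares of cells, 102 left the interval of the reported share, with detection at 10 and 100 TPM among the settings. Of 600 recomputed mean levels, 180 moved by 1 SD over cells or more, with other pseudocounts among the settings. Another pseudocount shifts the level of every cell listed at 0, also where the SD is 0. The 180 thus include a change of scale and do not tell how stable the levels are. Hoxa7 in GMP minus LMPP, at 0.08 as reported, was -2.02 on the log2 of the mean TPM. With a pseudocount of 0.1 the median difference of the 10 genes was -2.88 in CLP minus LMPP. On the log2 of the mean TPM it was -3.48 in GMP minus LMPP, 1.22 in CLP minus GMP and -2.43 in pDC minus CDP. The number of the 10 genes beyond 1 or -1 follows, with the share of the genes that passed the filter in brackets. It was 6 (68.2%) in GMP minus LMPP and 3 (36.4%) with a pseudocount of 10. In pDC minus CDP it was 5 (31.9%), and 1 (12.1%) with a pseudocount of 10. For CLP minus GMP it was 1, but 3 with a pseudocount of 0.1, 8 on the log2 of the mean TPM, 2 without the 5% of cells with most genes and 2 in cells with 3000 to 6000 genes. For pre-pro-B minus CLP it was 2, but 0 with a pseudocount of 10, 6 on the log2 of the mean TPM and 1 in cells with 3000 to 6000 genes. For cMoP minus GMP it was 2, but 4 with a pseudocount of 0.1, 1 with a pseudocount of 10, 4 on the log2 of the mean TPM and 4 in cells with 3000 to 6000 genes. For SiglecH+Ly6C- minus SiglecH-Ly6C- it was 1 (17.5%), but 0 (5.38%) with a pseudocount of 10. It was 3 (28.2%) on the log2 of the mean TPM and 0 (17.5%) with size factors. For SiglecH+Ly6C+ minus SiglecH+Ly6C- it was 0 (12.9%), but 2 (27.4%) with a pseudocount of 0.1. It was 2 (29.2%) on the log2 of the mean TPM and 1 (13.5%) without the 5% of cells with most genes. For SiglecH+Ly6C+ minus SiglecH-Ly6C+ it was 0 (11.4%), but 3 (28.8%) on the log2 of the mean TPM. For blood minus marrow pre-DC it was 0 (25.2%), but 2 (46.7%) with a pseudocount of 0.1 and 4 (52.1%) on the log2 of the mean TPM. The cause was not tested. At 100 TPM the mean number of the 10 genes per cell was 2.42 in LMPP, 0.567 in pre-pro-B cells, 0.882 in GMP, 0.318 in cMoP, 0.983 in CDP and 0.0741 in pDC. Size factors moved the median of the genes that passed the filter by 0.22 in pDC minus CDP, where 7.92% of genes were then at 1 or more and 20.2% at -1 or less, against 4.77% and 27.1% before, and by at most 0.0681 elsewhere. Meis1, Hlf, Angpt1, Gata2, Mecom, Hoxa9 and Hoxa10 were lower in CLP, GMP and CDP than in LMPP under each of the 7 alternatives run for these comparisons. Gata2, Mecom, Hoxa9 and Hoxa10 lay within the line under some of them. The alternatives reuse cells of the same gates. Hlf, Hoxa10 and Mecom, and in part Gata2 and Angpt1, passed the filter through LMPP alone. The same direction is therefore no support for a difference. TPM hold no counts, so what depth limits could only be read from genes per cell.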
